A study of Mus musculus with 6 samples.

Results

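The Arg1 Mmp12 macrophages of the inflamed mouse spinal cord were 766 of 9079 cell barcodes in the series. They were 766 of 5106 cells gated on monocyte genes in its 4 libraries from mice with experimental autoimmune encephalomyelitis (EAE). This gate on RNA, here called the base gate, also passed some cells with markers of other cell classes. It required at least 10 transcript counts (unique molecular identifiers, UMIs) summed over Ccr2, Ly6c2, Fn1, F10, Tgfbi, S100a4 and Plac8, and at most 2 over the microglial genes Tmem119, P2ry12, Siglech, Sparc and Olfml3. Each cell was then scored by the mean of its log-scaled levels of Arg1, Mmp12, F7, Acp5 and Vat1, and the top 15% over the 4 libraries together were kept. The cells were thus chosen by measured values, and the levels of these 17 genes, and the contrast with the other 4340 base-gate cells, are descriptions that carry no test.

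Monocytes that enter inflamed nervous tissue mature there into macrophages that take up myelin and cell debris. Arg1 encodes arginase 1, which splits arginine into ornithine and urea and competes with nitric oxide synthase for arginine. Mmp12 encodes macrophage elastase, F7 coagulation factor VII, Acp5 the tartrate-resistant acid phosphatase of osteoclasts and lipid-laden macrophages, and Vat1 a membrane protein of vesicle transport.

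The series profiled single CD11b+ cells, a myeloid surface marker, of the spinal cord of C57BL/6 mice aged 10 weeks. Live cells were stained with 10 µM DCFDA, a dye that fluoresces once reactive oxygen species (ROS) oxidise it, and sorted as ROS+ or ROS-. There were 6 libraries: EAE ROS+, EAE ROS- and healthy ROS-, 2 of each, with EAE mice taken at disease onset. Whether the 2 libraries of a group stem from different animals is not given in the labels, so p-values measure at most the spread between libraries, which may be technical. The ROS gate reports dye in a cell at the sort and does not identify the enzyme that made the oxidants.

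The EAE libraries held 11909166 to 23407825 UMIs, and the 4 sets of Arg1 Mmp12 macrophages held 244865 to 3725930 UMIs. The files held 9079 barcodes where the study's text states 8701 cells. Barcodes found in more than 1 library numbered 42, and 7 Arg1 Mmp12 macrophages carried such a barcode. ROS- replicate 1 gave only 28 of the macrophages, so its values are the least precise. Doublets were not called.

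The cells carried the RNA of macrophages. Of 10 general monocyte and macrophage markers, 9 had UMIs in them, among them Csf1r, the receptor for colony-stimulating factor 1, at 444 to 531 CPM (UMIs per 1000000 of the summed cells) across libraries, and Cd68, a lysosomal membrane protein, at 594 to 742 CPM. Cd163, the hemoglobin scavenger receptor of resident macrophages, was at 0, and the mannose receptor Mrc1 had 14 UMIs in all 766 cells. The summed marker level was 23.9 to 109 CPM for 10 dendritic cell markers, 0.977 to 29.8 CPM for 9 T and NK cell markers and 282 to 494 CPM for 9 neutrophil markers (of which S100a8 was 135 to 319 CPM). The 5 microglial genes of the gate, which the rule itself holds down, summed to 44.3 to 127 CPM. At least 3 UMIs of neutrophil, dendritic or T and NK cell markers were present in 6 Arg1 Mmp12 macrophages (0.783%) and in 209 other base-gate cells (4.82%).

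Within the base gate, Arg1 Mmp12 macrophages were 12.5% of cells in EAE ROS+ replicate 1 (exact 95% binomial interval 10.8 to 14.4%), 17.6% in ROS+ replicate 2 (16.0 to 19.3%), 4.52% in ROS- replicate 1 (3.02 to 6.46%) and 19.2% in ROS- replicate 2 (16.9 to 21.7%). Intervals cover counting error only. ROS- replicate 1 was low and ROS- replicate 2 was above both ROS+ libraries, so the gates overlapped. The mean share was 15.04% ± 3.60 (SD, n = 2) in ROS+ and 11.9% ± 10.4 (SD, n = 2) in ROS-, a difference of 3.18 percentage points (two-sided exact permutation test, p = 1; with 2 against 2 libraries the smallest possible p is 0.333). Without ROS- replicate 1 the difference was -4.15 percentage points, that is, higher in ROS-. Over all cells of a library the share was 13.02% ± 4.96 in ROS+ and 7.50% ± 8.16 in ROS- (exact permutation p = 0.667, n = 2 each). No base-gate cell was found among 1755 and 202 barcodes of the healthy libraries, counts that allow shares of up to 0.171% and 1.49%. These limits cover counting only, and the gate asks for at least 10 UMIs whatever the depth of a cell. The healthy libraries had medians of 2178 and 3617.5 UMIs per barcode, against 5467 to 9543 in the EAE libraries. The shallowest EAE base-gate cell had 2484 UMIs.

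**Figure D1:**
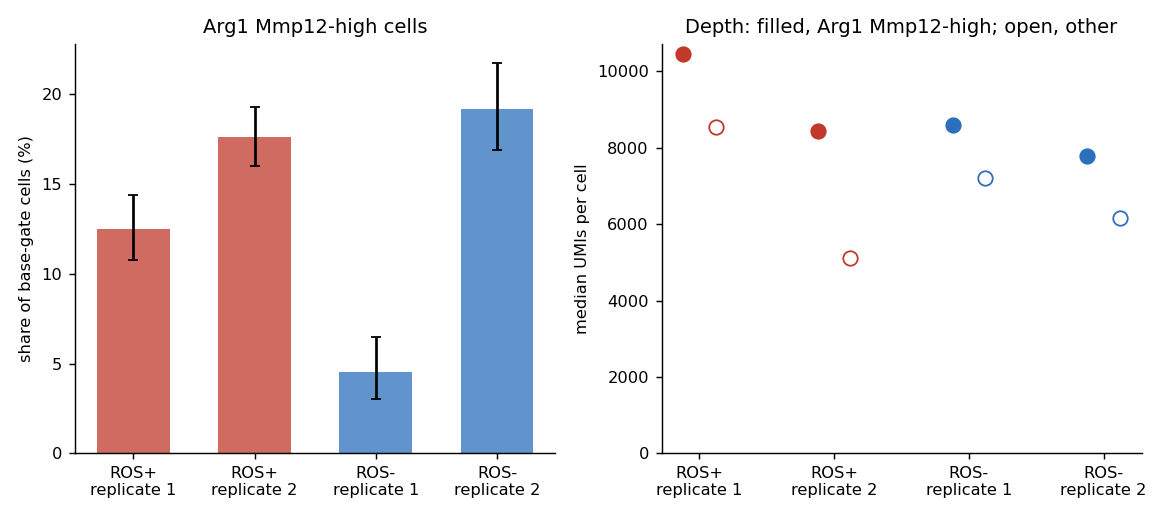
Left, Arg1 Mmp12 macrophages as a percentage of base-gate cells in each EAE library, with exact 95% binomial intervals. Right, median UMIs per cell in these macrophages (filled) and in the other base-gate cells (open); the filled point is above the open point in all 4 libraries.

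Arg1 Mmp12 macrophages were deeper than the other base-gate cells, with a median of 8708 against 6333 UMIs and 2435 against 1999 genes per cell. The ratio of median UMIs was 1.22 and 1.64 in the ROS+ libraries and 1.19 and 1.26 in the ROS- libraries. More RNA per cell and better capture cannot be told apart here. The median share of mitochondrial UMIs was 1.56% against 1.52%.

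Arg1 was the near-universal gene of the set and Mmp12 was not. Arg1 had a UMI in 99.7% of the chosen cells, with a median of 41 UMIs per cell, and Acp5 in 88.9%. Vat1 was detected in 52.1%, F7 in 47.0% and Mmp12 in 44.3%, and the median Mmp12 count of a chosen cell was 0. The shares in the other base-gate cells were 71.5% for Arg1, 36.01% for Acp5, 14.2% for Vat1, 9.68% for F7 and 8.502% for Mmp12. In 274 cells gated as microglia, with a median of 4744 UMIs against 8708, the shares were 29.2%, 6.20%, 2.92%, 0% and 3.28% in the same order. The 0 of F7 allows up to 1.09% of cells with an F7 UMI, which does not limit the share of cells that express it, and for Arg1 a share of 29.2% cannot be told apart from free RNA. Of these 274 cells, 180 and 92 came from ROS- replicates 1 and 2, 2 from ROS+ replicate 1 and none from ROS+ replicate 2. The shares in microglia are thus almost wholly those of the ROS- libraries. Whether microglia themselves express the 5 genes was not tested. In healthy replicates 1 and 2, Vat1 had a UMI in 1.65% and 5.94% of barcodes and Arg1 in 1.94% and 0%. Mmp12, F7 and Acp5 had one in at most 0.495%. All 5 genes were detected together in 67 chosen cells, 4 in 240, 3 in 330 and 2 in 129. The score had no gap at its threshold: the 50 cells just inside had Arg1 at 3309 CPM and Mmp12 at 94.1 CPM, and the 50 just outside had Arg1 at 3599 CPM and Mmp12 at 96.2 CPM.

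The summed Arg1 level in the chosen cells was 4003 and 4890 CPM in ROS+ replicates 1 and 2, and 3724 and 4817 CPM in ROS- replicates 1 and 2. In the other base-gate cells it was 1509, 1440, 607 and 1240 CPM in the same order. Arg1 is part of the score and all libraries were cut at the same threshold, so its levels in both sets follow in part from that choice. The other cells of ROS- replicate 1 were lowest. Mmp12 was at 99.7 and 212 CPM in the chosen ROS+ cells and at 486 and 408 CPM in the chosen ROS- cells, with no overlap of the gates. Its level in the other cells, 14.9 and 17.6 CPM in ROS+ and 41.8 and 57.7 CPM in ROS-, had the same order. F7 was at 81.6, 101.2, 53.1 and 95.9 CPM, Acp5 at 377, 392.1, 270 and 393 CPM and Vat1 at 92.4, 81.3, 102 and 119 CPM, each in the library order above.

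**Figure D2:**
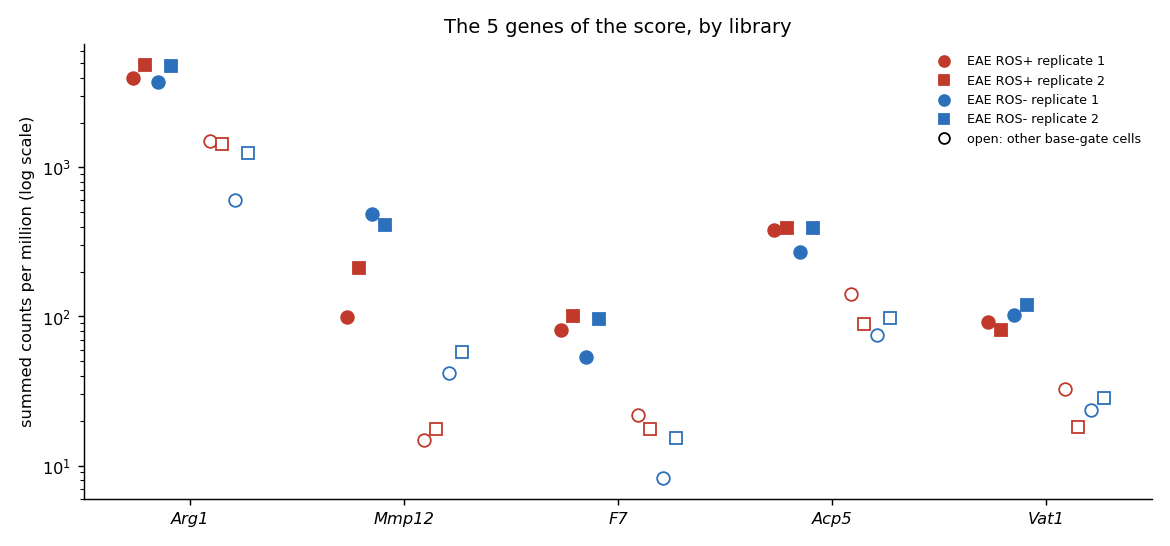
Summed CPM (log axis) of the 5 score genes in each EAE library, filled for Arg1 Mmp12 macrophages and open for other base-gate cells; red is ROS+, blue is ROS-, circles are replicate 1 and squares replicate 2. Filled points lie above open ones because the genes chose the cells; For Mmp12 both filled ROS- points (486 and 408) lie above the filled ROS+ points (99.7 and 212), and for Vat1 by less (102 and 119 against 92.4 and 81.3).

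Each gene was also read with a score of the other 4, so that it took no part in choosing the cells. The top 15% by 4 genes still had more of the fifth in each of the 4 libraries: 1.17 to 2.39 times more Arg1, 1.95 to 3.44 times more Mmp12, 1.78 to 3.46 times more F7, 1.26 to 2.39 times more Acp5 and 1.78 to 3.46 times more Vat1. The lowest ratio of Arg1, F7 and Acp5 was in ROS+ replicate 1. These ratios are descriptions, as the 5 genes were grouped with results of these libraries in view.

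Over all 5106 base-gate cells, where the top 15% plays no part, none of the 5 genes passed the test between ROS+ and ROS-. The edgeR quasi-likelihood test over 11806 genes, Benjamini-Hochberg adjusted, called 5 genes (0.0424%) higher in ROS+ and 31 (0.263%) lower. Those higher were the neutrophil markers S100a9, Ngp, Camp, Retnlg and Ltf. Those lower included the T and NK cell markers Cd3g, Cd3d and Nkg7 and the dendritic cell markers Ccr7, Ccl22 and Cd209a. Whether other cell classes in the gate carried these calls was not tested. Mmp12 was at 27.7 and 69.5 CPM over scaled totals in ROS+ against 63.5 and 138 CPM in ROS-, so the gates overlapped (log2 change -1.06, SE 0.47, adjusted p = 0.834 by edgeR). Arg1 was at 1930 and 2353 CPM in ROS+ and at 752 and 2063 CPM in ROS- (log2 change 0.61, SE 0.44, adjusted p = 0.953 by edgeR). Without ROS- replicate 2, which leaves a single ROS- library, the log2 change was 1.51 for Arg1 and 1.79 for F7. Without ROS- replicate 1 instead, it was 0.054 for Arg1 and 0.073 for F7.

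The RefSeq promoter table (build GRCm38.p6) held 4 of the 5 score genes, all but Arg1. TGANTCA, the letters of an AP-1 site searched on both strands, were present in the windows of 1 of these 4 genes, Mmp12, and of 8.97% of all 27025 genes in the table. They were also present for genes that were lower in the chosen cells, as given below. The windows searched run from 250 bases before to 50 after each start. The stretch before one of the Mmp12 starts, chr9:7347124-7347373 on the plus strand, is shown because the motif lies 44 bases before the start (capitals):
Mmp12: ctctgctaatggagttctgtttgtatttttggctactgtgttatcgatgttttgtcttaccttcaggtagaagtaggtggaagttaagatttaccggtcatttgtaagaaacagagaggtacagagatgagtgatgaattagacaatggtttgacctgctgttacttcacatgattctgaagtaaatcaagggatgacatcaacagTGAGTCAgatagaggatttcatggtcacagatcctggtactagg

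Of 4579 genes with a mean of at least 20 CPM, 810 (17.7%) were higher in the Arg1 Mmp12 macrophages than in the other base-gate cells in all 4 libraries, and 1080 (23.6%) were lower in all 4. At least a 1.5-fold difference in all 4 was seen for 17 genes higher (0.371%) and 31 lower (0.677%), without the genes of the rule. Values below are CPM, and log2 ratios are of CPM + 5 in the macrophages over the other cells of the same library, as the median ± SD over the 4 libraries. Median absolute ratios were smallest in ROS+ replicate 1 (0.126 on the log2 scale) and largest in ROS- replicate 1 (0.318), the library with 28 of the cells. Without ROS+ replicate 1, 59 genes were at least 1.5-fold higher and 81 lower.

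Genes of lipid handling and of osteoclasts and foam cells were the largest on the high side. Fabp5, a carrier of fatty acids, was at 848, 891, 845 and 970 CPM in the macrophages of ROS+ replicates 1 and 2 and ROS- replicates 1 and 2, and at 453, 243, 178 and 276 CPM in the other cells. The sets did not overlap, and the macrophages varied less between libraries (889 ± 58.1 CPM, SD, n = 4) than the other cells (288 ± 118 CPM), with a log2 ratio of 1.82 ± 0.56. Spp1, which encodes the secreted matrix protein osteopontin, was at 698, 761, 1111 and 725 CPM against 441, 300, 200 and 222 CPM (log2 ratio 1.51 ± 0.74). Gpnmb, a glycoprotein of lysosomes and melanosomes, was at 351, 315, 221 and 262 CPM against 215, 71.5, 91.7 and 72.4 CPM (log2 ratio 1.505 ± 0.61). For Spp1 and Gpnmb too, the lowest macrophage value lay above the highest of the other cells.

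Of the 10 measured osteoclast and foam cell genes outside the rule, 9 (90%) were higher in all 4 libraries and 0 lower. All 4579 genes had shares of 17.7% higher and 23.6% lower. The median log2 ratio of the list was 0.85, beside -0.02 over all 4579 genes. With no filter on low values the median of the list was 0.46. Cd63, a lysosomal tetraspanin, had a log2 ratio of 1.26 ± 0.48, Plin2, the coat of lipid droplets, 0.93 ± 0.29, Cd9, another tetraspanin, 0.77 ± 0.23, and Lgals3, the galactose-binding lectin galectin 3, 0.74 ± 0.29. Tfec, a transcription factor of the Mitf family, was the measured gene without a shared sign. Classical osteoclast genes such as Ctsk, Dcstamp and Ocstamp were below the level needed to be measured.

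Lipid uptake and efflux genes were higher in all 4 libraries in 9 of 15 cases (60%) and lower in 0 (median 0.27, and 0.57 after thinning). The shares over all genes were 17.7% and 23.6%. Fabp5, Plin2, Trem2, Cd36, Lpl and Fabp4 are also on the osteoclast and foam cell list, so these counts are not independent. Apoc2, which activates lipoprotein lipase, had a log2 ratio of 0.74 ± 0.23, Trem2, a receptor for lipids, 0.65 ± 0.26, the cholesterol exporter Abca1 0.63 ± 0.29 and the lipid carrier Apoe 0.61 ± 0.30. Hilpda, an inhibitor of lipid breakdown that sits on droplets, was at 109, 216, 73.5 and 190 CPM against 56.7, 97.8, 33.8 and 99.8 CPM. Its log2 ratio, 0.96 ± 0.10, varied least among the 12 largest. Rgs1, a regulator of G protein signals, Ms4a7, a membrane protein of macrophages, and Ccl6, a chemokine, were also among the 12, at 0.94 ± 0.35, 1.02 ± 0.52 and 0.94 ± 0.33. Ms4a7 was at 305, 126, 294 and 133 CPM against 281, 47.9, 147 and 60.7 CPM. In the macrophages, libraries with the same replicate number were closer to each other in Ms4a7 than libraries of the same gate, and so they were in Ccl6, at 508 and 470 CPM in the replicates 1 and 1495 and 1630 CPM in the replicates 2. The pseudogene Gm15590 (0.84 ± 0.27) completes the 12 and is uncertain, because its reads can come from a near-identical gene.

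**Figure D3:**
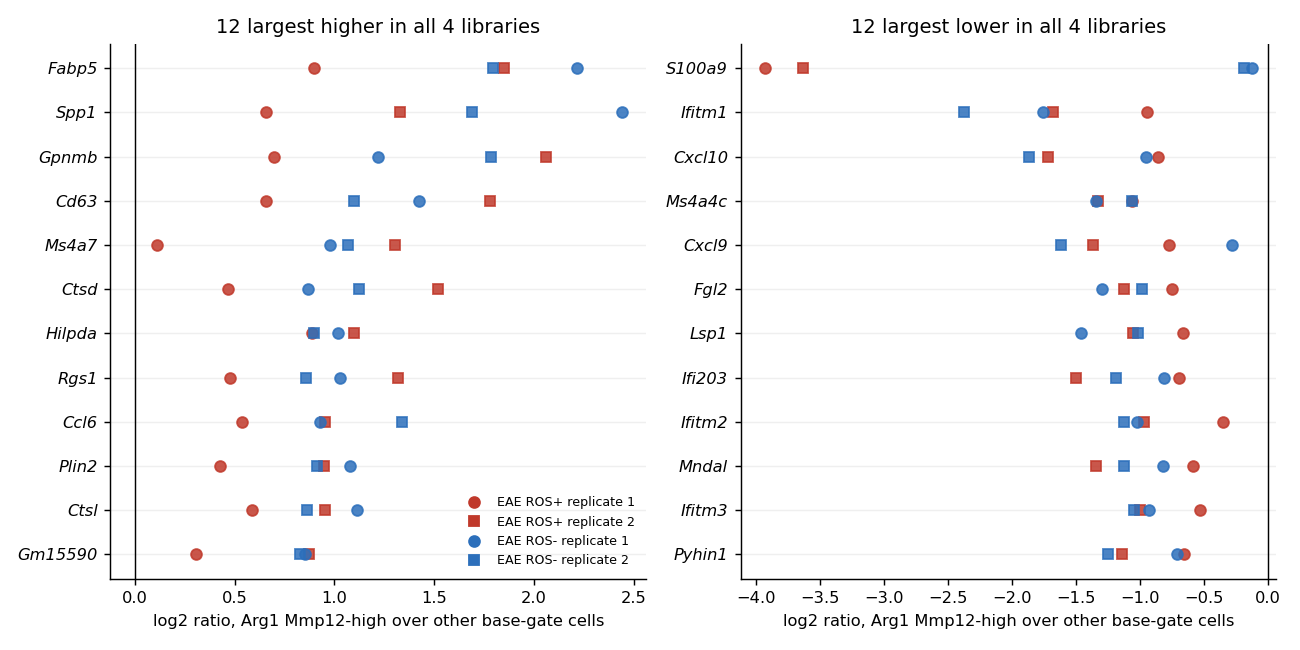
log2 ratio of Arg1 Mmp12 macrophages over other base-gate cells in each EAE library for the 12 genes with the largest median ratio on each side; red is ROS+, blue is ROS-, circles are replicate 1 and squares replicate 2. ROS+ replicate 1 has the ratio closest to 0 for all 12 genes on the high side, and S100a9 is near 0 in both ROS- libraries, where it was near absent.

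Lysosomal genes were higher as a group. Of 23 measured hydrolases, lysosomal membrane proteins and proton pump subunits, 19 (82.6%) were higher in all 4 libraries and 1 (4.35%) was lower. Among all genes 17.7% were higher and 23.6% lower. The median of the lysosomal list was 0.38. Ctsd, an aspartic protease, was at 2488, 2852, 2814 and 2499 CPM against 1795, 992, 1538 and 1146 CPM (log2 ratio 1.00 ± 0.44). The cysteine proteases Ctsl and Ctsb had log2 ratios of 0.91 ± 0.22 and 0.83 ± 0.19, and Lipa, the acid lipase that frees cholesterol from its esters, 0.84 ± 0.20. Pump subunits were closer to 0, with 0.18 ± 0.07 for Atp6v1a. The gene lower in all 4 was Npc2, a cholesterol carrier of the lysosome, at a median of -0.03.

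The promoter table held 17 of these 23 genes. The letters CACGTG, the core of the E-box that factors of the Mitf and Tfeb family bind, are the same on both strands and were present for 8 of the 17 (47.1%), and for 8.09% of all genes of the table. The longer form TCACGTGA, which contains that core, was present for 5 of the 17 and for 1.12% of all. Among the 12 largest genes on the high side, 9 had promoters and 3 of these held CACGTG: Ctsd, Plin2 and Ctsl. Ctsd and a pump subunit are shown, each for the 250 bases before the start on the minus strand, chr7:142387828-142388077 and chr16:44139260-44139509, with CACGTG in capitals. A match is a description of letters and not of binding.
Ctsd: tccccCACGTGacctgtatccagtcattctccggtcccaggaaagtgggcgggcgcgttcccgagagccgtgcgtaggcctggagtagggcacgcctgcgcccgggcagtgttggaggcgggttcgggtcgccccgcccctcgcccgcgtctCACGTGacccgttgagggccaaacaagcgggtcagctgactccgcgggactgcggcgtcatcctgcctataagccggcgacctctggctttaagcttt
Atp6v1a: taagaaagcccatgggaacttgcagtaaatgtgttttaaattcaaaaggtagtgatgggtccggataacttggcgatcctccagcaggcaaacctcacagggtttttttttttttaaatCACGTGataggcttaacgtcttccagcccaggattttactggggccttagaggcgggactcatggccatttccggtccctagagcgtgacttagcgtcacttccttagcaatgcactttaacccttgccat

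Genes of heme, iron and the Nrf2 response to oxidants were higher in all 4 libraries in 12 of 18 cases (66.7%). They were lower in 0 (median 0.30), beside 17.7% higher and 23.6% lower over all genes. Hmox1, which breaks down heme, was at 211, 286, 241 and 331 CPM against 150, 154, 97.9 and 189 CPM (log2 ratio 0.83 ± 0.32). The ferritin chains Ftl1 and Fth1 had log2 ratios of 0.74 ± 0.22 and 0.57 ± 0.21, the heme transporter Slc48a1 0.63 ± 0.22 and the cystine importer Slc7a11 0.58 ± 0.23. Nfe2l2, which encodes Nrf2 itself, had a median of -0.31 and was higher in 1 of 4 libraries. Fth1 and Ftl1 have processed pseudogenes that can share their reads.

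The NADPH oxidase, the phagocyte enzyme that makes superoxide, was mixed. Its membrane subunits Cyba (log2 ratio 0.39 ± 0.14) and Cybb (0.23 ± 0.18) were higher in all 4 libraries. The cytosolic subunit Ncf1 (-0.29 ± 0.11) and the GTPase Rac2 (-0.47 ± 0.21) were lower in all 4. In all, 2 of the 7 genes (28.6%) were higher and 4 (57.1%) lower, beside 17.7% and 23.6% of all genes.

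Arginine metabolism beyond Arg1 was mixed: 3 of 11 measured genes were higher in all 4 libraries, 3 lower, and the median was -0.00. Slc7a2, which imports arginine, was at 209, 238, 237 and 252 CPM against 159, 156, 82.2 and 169 CPM (log2 ratio 0.58 ± 0.49). Odc1, the ornithine decarboxylase that starts polyamine synthesis, had a log2 ratio of 0.18 ± 0.12, and -0.21 when each cell was thinned to 3000 UMIs and the cells chosen again. Smox, a spermine oxidase, had -0.66 ± 0.51, and Nos2, the nitric oxide synthase that shares the substrate of Arg1, 0.15 ± 0.15, higher in all 4. Of 11 measured alternative activation genes other than Arg1, 1 (9.09%) was higher in all 4 libraries and 3 (27.3%) were lower, beside 17.7% and 23.6% of all genes. Pdcd1lg2 reached the level needed to be measured only through the other cells. Without it and such genes elsewhere, 1 of 10 was higher and 2 were lower, beside 744 and 998 of 4304 genes in all. The interleukin 4 receptor gene Il4ra had a log2 ratio of -0.29 ± 0.33 and the transglutaminase Tgm2 -0.28 ± 0.28.

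The lists of matrix, coagulation and glycolysis genes had small medians, 0.12, 0.05 and 0.18. Over all genes, 17.7% were higher and 23.6% lower in all 4 libraries. Of 12 matrix genes outside the rule 4 (33.3%) were higher in all 4 libraries and 1 (8.33%) lower. Single matrix genes differed more: Spp1, given above, was at 1.51 ± 0.74 and Adam8, a membrane protease, at 0.91 ± 0.31. Timp1, a protease inhibitor, was at -0.94 ± 0.94 and lower in 3 libraries. Of 8 coagulation and fibrinolysis genes outside the rule 2 (25.0%) were higher and 0 lower, with F13a1, the chain of the clot-stabilising factor XIII, at 0.65 ± 0.34. Glycolysis and hypoxia genes were higher in 13 of 24 cases (54.2%) and lower in 1 (4.17%), with lactate dehydrogenase Ldha at 0.29 ± 0.07. Oxidative phosphorylation genes had a median of 0.05, with 2 of 17 (11.8%) higher and 3 (17.6%) lower.

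**Figure D4:**
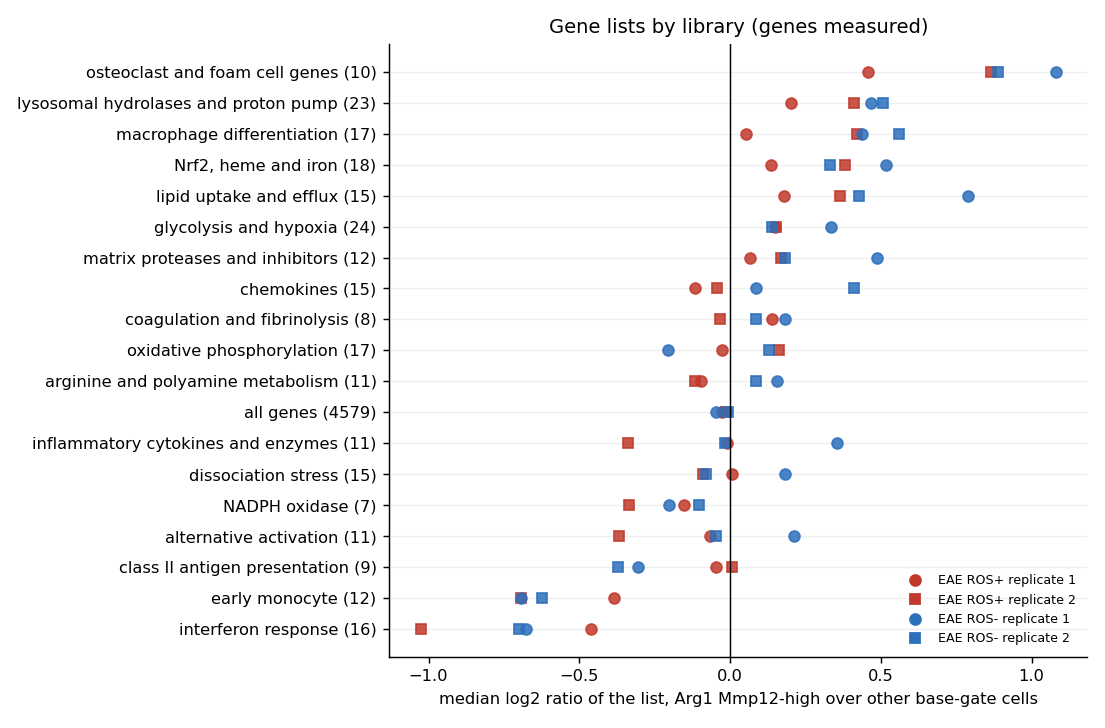
Median log2 ratio over the measured genes of each list (number in brackets; genes of the rule left out) in each EAE library, Arg1 Mmp12 macrophages over other base-gate cells; red is ROS+, blue is ROS-, circles are replicate 1 and squares replicate 2. Osteoclast and foam cell genes, at a median of 0.85, and interferon genes, at -0.79, lie at the ends, with all 4 libraries on 1 side of 0.

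Interferon-induced genes were the main group on the low side. Of 16 measured, 11 (68.75%) were lower in all 4 libraries and 0 higher, beside 23.6% and 17.7% of all genes. The median of the interferon list was -0.79. Without 1 gene that was measured only through the other cells, 10 of 15 were lower, with a median of -0.77. Cxcl10, a chemokine that attracts T cells, was at 209, 385, 216 and 142 CPM in the macrophages and at 384, 1279, 424 and 531 CPM in the other cells (log2 ratio -1.34 ± 0.52). Usp18, which curbs interferon signals, had a log2 ratio of -1.01 ± 0.40, Ifitm3, a membrane protein that blocks virus entry, -0.97 ± 0.24, Ifit3, which binds in antiviral complexes, -0.91 ± 0.52, and Isg15, a ubiquitin-like protein, -0.91 ± 0.18. Outside that list Cxcl9, another chemokine for T cells, was at 332, 301, 486 and 182 CPM against 571, 784, 591 and 571 CPM (-1.07 ± 0.60). Ifitm1 (-1.72 ± 0.59), Ifitm2 (-1.0 ± 0.35) and the interferon-inducible genes Ifi203 (-1.0 ± 0.37), Mndal (-0.97 ± 0.33) and Pyhin1 (-0.93 ± 0.30) were also among the 12 largest on the low side, as were the fibrinogen-like gene Fgl2 (-1.05) and the leukocyte-specific gene Lsp1 (-1.04). Members of these families are similar in sequence, and reads may be shared among them.

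A pair of GAAA with 2 bases of any kind between them, a core of the interferon-stimulated response element, was present on either strand for 9 of the 15 interferon genes with a promoter in the table (60%) and for 3.99% of all genes. Of the 10 largest low-side genes with a promoter, 5 held it: Ifitm3, Mndal, Ifitm2, Ifi203 and Cxcl10. The AP-1 letters TGANTCA were present for 6 of these 10 low-side genes and for 3 of the 9 on the high side, beside 8.97% of all genes. Cxcl10, for its large difference, and Ifit3, for its repeated match, are shown for the 250 bases before the start, chr5:92348890-92349139 on the minus strand and chr19:34583279-34583528 on the plus strand. Capitals mark the match, which in Ifit3 reads as its reverse complement at both places.
Cxcl10: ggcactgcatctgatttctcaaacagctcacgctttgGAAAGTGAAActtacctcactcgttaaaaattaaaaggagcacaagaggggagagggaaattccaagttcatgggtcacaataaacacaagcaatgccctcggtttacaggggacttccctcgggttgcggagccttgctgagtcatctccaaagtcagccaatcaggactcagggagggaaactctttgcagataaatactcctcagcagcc
Ifit3: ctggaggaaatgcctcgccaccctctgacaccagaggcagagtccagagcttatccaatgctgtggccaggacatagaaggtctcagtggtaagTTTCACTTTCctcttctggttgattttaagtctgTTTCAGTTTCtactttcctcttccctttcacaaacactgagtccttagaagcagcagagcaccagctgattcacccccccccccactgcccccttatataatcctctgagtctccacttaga

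Genes of freshly recruited monocytes were low as well. Of 12 measured early monocyte genes outside the rule 7 (58.3%) were lower in all 4 libraries and 2 (16.7%) higher (median -0.58). The shares of all genes were 23.6% lower and 17.7% higher. Ifitm6 and 3 others reached the level needed to be measured only through the other cells, and without these 4 genes 4 of 8 were lower in all 4 libraries, with a median of -0.28. Ifitm6 was at 7.33, 15.3, 0 and 1.79 CPM in the macrophages and at 48.8, 150, 71.9 and 45.8 CPM in the other cells. Ms4a4c was at 138, 261, 139 and 285 CPM against 294, 665, 361 and 603 CPM and had a log2 ratio of -1.20 ± 0.16. Genes of the gate itself were low in the chosen cells too: Plac8 (-1.73 ± 0.25), S100a4 (-1.54 ± 0.48) and the chemokine receptor Ccr2 (-1.07 ± 0.25). On the other side, 10 of 17 macrophage differentiation genes (58.8%) were higher in all 4 libraries and 1 (5.88%) was lower (median 0.34). Among the 10 was Cd68 (0.79 ± 0.20). Without 1 gene that was measured only through the macrophages, 9 of 16 were higher and 1 lower. Trem2, Cd63 and Apoe of this list are also on the foam cell or lipid lists above.

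Counts of antigen presentation and cytokine genes lay near the shares over all genes, 17.7% higher and 23.6% lower. Of 9 class II and costimulation genes 0 were higher in all 4 libraries and 3 (33.3%) lower, among them the costimulator Cd40 (-0.78 ± 0.41) and H2-DMa, which loads peptides (-0.38 ± 0.13). The invariant chain Cd74 had a median of -0.07. Of 11 inflammatory genes 2 (18.2%) were higher in all 4 and 3 (27.3%) lower: Il1b had a log2 ratio of -0.35 ± 0.19 and Inhba, the activin A chain, 0.50 ± 0.55. Without Il18, which was measured only through the other cells, 2 of 10 were higher and 2 lower. Chemokines split, 4 of 15 higher and 3 lower, with Cxcl1, which attracts neutrophils, at 111, 29.5, 147 and 28.6 CPM against 55.4, 13.9, 22.4 and 6.37 CPM. Dissociation stress genes, a sign of handling, had a median of -0.13 with 4 of 15 higher and 4 lower. Of 17 cell cycle genes, 2 were measured, Pcna (-0.06 ± 0.29) and Hmgb2 (-0.24 ± 0.04).

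The base-gate cells were also ordered by the score in 5 bins. Fabp5 averaged 170 ± 84.5 CPM in the lower 50% of cells, 354 ± 73.7 at 50 to 70%, 532 ± 63.0 at 70 to 85%, 784 ± 155 at 85 to 95% and 1090 ± 457 in the top 5% (SD, n = 4 libraries). Cxcl10 averaged 913 ± 636, 405 ± 183, 342 ± 116, 276 ± 109 and 142 ± 122 CPM over the same bins. The 12 largest genes per side were chosen on the top 15% of the same score, so their order over bins largely repeats that choice. Of those on the high side, 7 were highest in the top bin in all 4 libraries and 11 in at least 3. Of those on the low side, 10 were highest in the lowest bin in all 4 libraries, and the other two, Cxcl9 and S100a9, in 3. The means of Fabp5 and Cxcl10 thus differed between bins over the whole range of the score, also within the 85% of cells below the threshold. Median UMIs per cell moved with the score too, from 4751 to 7261 in the lowest bin to 7887 to 9843 in the top bin across libraries. The part of depth in these levels was not tested by bins, but when cells were thinned to 3000 UMIs, 7 macrophages and 85 other cells below that depth were left out and the top 15% was chosen again, 16 genes were at least 1.5-fold higher and 36 lower, beside 17 and 31. The set chosen after thinning held 763 cells, of which 568 were in the original set, and the genes behind these counts were not compared.

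**Figure D5:**
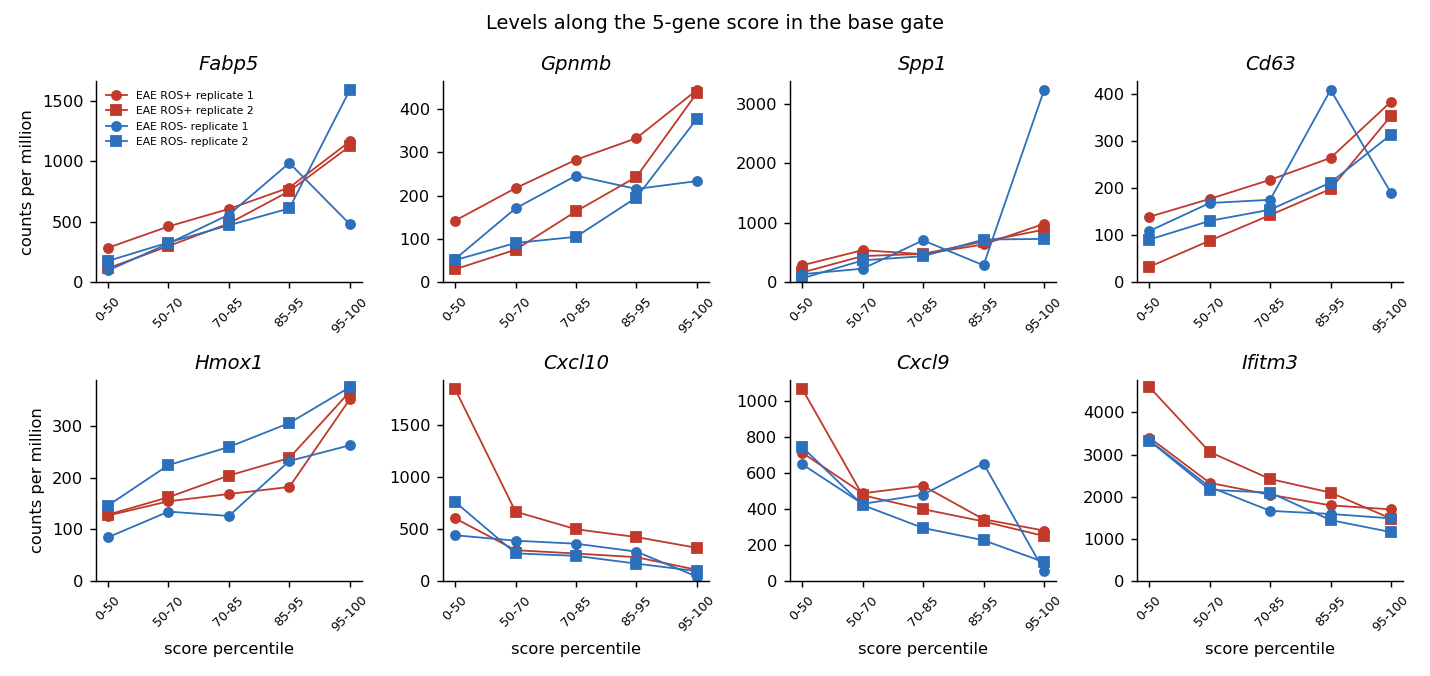
CPM of 8 genes in base-gate cells binned by percentile of the 5-gene score, 1 line per EAE library (red ROS+, blue ROS-; circles replicate 1, squares replicate 2). Fabp5 goes from a mean of 170 to 1090 and Cxcl10 from 913 to 142; the top bin of ROS- replicate 1 holds only 8 cells.

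Arg1 Mmp12 macrophages overlapped in part with other top 15% sets of the same gate scored on other genes. They shared 171 cells with the top 15% for Nos2, Inhba and Il6 (22.3% of each set), 174 with that for Ms4a7, Apoe and Apoc2 (22.7%) and 178 with that for Saa3, Cxcl1 and Cxcl2 (23.2%), where each set is 15% of base-gate cells. With the monocyte set of Lrg1, Ifitm6 and Vcan they shared 30 cells (3.92% of each). The overlap with Ms4a7, Apoe and Apoc2 differed by library: 53.0% of the Arg1 Mmp12 macrophages of ROS+ replicate 1 and 35.7% of those of ROS- replicate 1 were in that set, against 13.8% and 12.3% in the replicates 2. That set also took more of all base-gate cells in the replicates 1, 38.3% and 15.2%, than in the replicates 2, 5.57% and 4.35%.

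Between the ROS gates, no gene of the Arg1 Mmp12 macrophages passed the threshold in the fit without a block. Of 8351 genes tested, edgeR's quasi-likelihood test called 0 (0%) higher and 0 (0%) lower at an adjusted p under 0.05, with 349 genes under 0.05 before adjustment. DESeq2 also called 0, with 63 genes under 0.05 before adjustment. On simulated counts for this comparison the edgeR test recovered 45 of 185 genes changed 2-fold and 168 of 183 changed 4-fold. Leaving out any 1 library gave 14 (ROS+ replicate 1), 23 (ROS+ replicate 2), 40 (ROS- replicate 1) or 17 (ROS- replicate 2) called genes. Each of these fits takes the spread from 1 residual degree of freedom and the lone sample is assumed to vary like the other group. No list had a called gene, and the list medians of the ROS+ over ROS- change included -0.12 for 13 arginine and polyamine genes, -0.02 for 11 alternative activation genes and 0.55 for 11 early monocyte genes, beside 0.01 over all genes tested.

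A further test asked whether the difference between gates was the same inside and outside the set. It used 8 sums, the macrophages and the other base-gate cells of each library, with the library as a block, and called 15 of 10590 genes: 5 (0.0472%) with a higher and 10 (0.0944%) with a lower ratio of macrophages to other cells in ROS+. Arg1 is 1 of the 15 and chose the cells, which leaves 14. Of these 1, S100a8, kept its call in all 12 alternatives, and the other 13 lost it without at least 1 library. In this fit the p-values are close to those of a normal curve at the stated SE. The spread of each gene was thus taken almost wholly from the trend over all genes. The adjusted p-values therefore do not measure the spread of a single gene between its own libraries. DESeq2 called 1 of the 15. Values below are CPM over scaled totals.

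Spp1 was at 736 and 749 CPM in the macrophages and at 457 and 300 CPM in the other cells of the ROS+ libraries, and at 1076 and 726 against 196 and 223 CPM in ROS-. The ratio was thus smaller in ROS+ with no overlap, by -1.04 on the log2 scale (SE 0.18, edgeR adjusted p = 1.81e-05). The adjusted p was 0.164 without ROS+ replicate 1 and 0.942 without ROS- replicate 1. The chemokine Ccl7 was at 7.73 and 34.8 against 12.7 and 46.6 CPM in ROS+ and at 27.7 and 33.4 against 14.95 and 11.03 CPM in ROS- (difference -1.91, SE 0.33, edgeR adjusted p = 4.06e-05; 0.821 without ROS- replicate 2). Cxcl1 had ratios on the log2 scale of 0.97 and 0.85 in ROS+ and 2.46 and 1.56 in ROS- (difference -1.41, SE 0.29, edgeR adjusted p = 0.00226; 0.113 without ROS+ replicate 1, 0.821 without ROS- replicate 1 and 0.0543 without ROS- replicate 2). C5ar1, the receptor for complement C5a, and the chemokine Ccl2 had differences of -0.82 (SE 0.20) and -0.87 (SE 0.22), and lost their calls without any 1 of 4 and of 3 libraries.

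S100a8, an inflammatory calcium-binding protein of neutrophils and monocytes, was at 262 and 314 CPM in the macrophages of ROS+ and at 131 and 257 CPM in those of ROS-, but at 542 and 1138 CPM in the other ROS+ cells and 55.6 and 102 CPM in the other ROS- cells. The macrophages were below the other cells in ROS+ and above them in ROS- (difference -2.77 on the log2 scale, SE 0.21, edgeR adjusted p = 7.59e-37). The summed plain CPM of 9 neutrophil markers includes S100a8, so the sum cannot show whether other markers moved with it. The sum was 357 and 494 CPM in the ROS+ macrophages, of which S100a8 made 249 and 319 CPM. In the other ROS+ cells it was 950 and 2206 CPM. In ROS- the sum was 282 and 342 CPM in the macrophages, S100a8 making 135 and 257 CPM, against 128 and 162 CPM. S100a9, the partner of S100a8, was at 9.77 and 40.5 CPM in the ROS+ macrophages and 220 and 561 CPM in the other ROS+ cells. In all 4 sets of the ROS- libraries S100a9 was under 1 CPM, and the neutrophil marker Ngp was at 0 in the ROS- macrophages. Ly6g, which defines neutrophils, was at 0 in all macrophages and under 1 CPM in the other cells. With the cells that held markers of other classes left out, the S100a8 difference was -1.08 (edgeR adjusted p = 0.000535), so its size depended on few cells. Lcn2, a further gene of neutrophil granules, had a difference of -3.17 (SE 0.61) that was -1.16 and not called without those cells.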

How the data were processed

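CD11b+ spinal cord cells of healthy and EAE mice were sorted on DCFDA and made into 6 droplet libraries of transcript 3' ends, as the labels' protocols state. UMI counts for each gene in each barcode, which are whole numbers, were deposited. Cell Ranger 2.0.1, Seurat 3, R 3.4.2 and the mm10 build are named in the submitters' processing notes, without their roles; settings and annotation are not given in the sources used. Barcodes under 200 genes or above 10% mitochondrial UMIs were dropped (1 barcode removed, 0 in the base gate). Library totals ran from 915197 to 23407825 UMIs.

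The score was the mean of log(1 + counts per 10000) of 5 genes. Counts were summed per library and cell set. Sums between ROS gates were tested by quasi-likelihood F tests of edgeR 4.0.16 (R 4.3.3) after TMM scaling and filterByExpr (minimum count 10), calling genes at an adjusted p (Benjamini-Hochberg) under 0.05, with 2 residual degrees of freedom. DESeq2 1.42.0 was an alternative. Standard errors are the absolute log2 change over the square root of F. Common biological coefficients of variation were 0.158 within the macrophages, 0.0861 in the fit of 8 sums and 0.199 over all base-gate cells. The edgeR steps were tested on simulated data; of genes changed 2-fold and 4-fold, the fit of 8 sums recovered 64 of 197 and 140 of 194. Replicates differed by more than counting error in every set (chi-square per degree of freedom 2.66 to 52.4).

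Contrasts with other base-gate cells used plain CPM with a pseudocount of 5 and a mean of at least 20 CPM, and no test. Of 397 list and marker genes, 393 were matched by symbol and 4 by ID. The named genes are the 12 with the largest median ratio per direction (at least 100 CPM, 1 side in all 4 libraries) with up to 4 of each of 19 lists; for tests, up to 6 called genes per direction with average log2 CPM of at least 5 and no overlap, and up to 2 called genes per list. Further list members were named after their values were seen. The set, the lists, the motifs and the rules were chosen with earlier results of these data known. Promoters are from RefSeq (GRCm38.p6), with chromosome 18 left out. Alternatives were other cell thresholds, thinning to 3000 UMIs, a depth window, scaling, filters, pseudocounts, the replicate block and leaving out each library. Python 3.11.15, numpy 2.4.6, pandas 2.3.3, scipy 1.17.1 and matplotlib 3.10.9 were used. Values of some genes are not reported here.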

Additional observations from a re-analysis of the deposited data

Results flagged for a closer look

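The 14 genes below, outside the 5 of the score, differed between ROS+ and ROS- in their ratio of Arg1 Mmp12 macrophages to other base-gate cells (ROS+ minus ROS-, log2 scale; test of the difference itself by edgeR). Lower in ROS+ were S100a8 (-2.77), Lcn2 (-3.17), Ccl7 (-1.91), Cxcl1 (-1.41), Mmp8 (-1.15), Rsad2 (-1.08), Spp1 (-1.04), Ccl2 (-0.87) and C5ar1 (-0.82). Higher in ROS+ were 2010005H15Rik (5.29), Cd200 (2.60), Ccnd2 (1.19), Slc25a4 (1.03) and Ifitm1 (0.78). The 4 libraries separated by gate for all of these but Rsad2, an interferon-induced enzyme. Ccnd2, a cyclin of the early cell cycle, was at 23.2 and 35.4 CPM in the ROS+ macrophages and 51.4 and 41.2 CPM in the ROS- macrophages, against 38.5 and 76.8 CPM and 162 and 205 CPM in the other cells. Dendritic cell markers moved with those other cells, at 28.8 and 49.3 CPM in ROS+ and 224 and 525 CPM in ROS-, and without cells that held markers of other classes Ccnd2 had a difference of 0.58 and Cd200 of 0.96, neither called (edgeR adjusted p = 1.00 for each). The values of 2010005H15Rik rest on 0 to 13.7 CPM, and those of Cd200 on 0 to 15.1 CPM.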

How the results depend on the processing

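The difference in share, 3.18 percentage points, ran from -4.15 to 10.5 when 1 library was left out (-4.15 without ROS- replicate 1) and stayed above 0 under the 10 other choices of cells that leave the share free to differ. Genes called between gates within the macrophages, 0, became 17 without a count filter, 41 (20 higher, 21 lower) with the replicate block and 14 to 40 without 1 library. Same-numbered libraries correlated at 0.143 in their deviations over 8351 genes; with only 2 pairs, the numbers are not shown to pair them. The 15 genes of the test inside against outside became 1 with DESeq2, 9 with DESeq2 size factors, 8 after thinning (5 shared), 7 without cells holding other classes' markers (6 shared; chosen after seeing the data) and 4 to 16 without 1 library. Genes at least 1.5-fold higher, 17, became 30 in the top 10% and 10 in the top 20%, and 19 to 59 without 1 library. Those lower, 31, became 56 in the top 10% and 47 as means over cells, and 31 to 81 without 1 library. The 36 genes called over all base-gate cells became 114 with DESeq2, 17 without a filter and 130 with the replicate block, which also called Mmp12 (-1.09, edgeR adjusted p = 0.017); 1 library left out gave 62 to 231. Of 1053 ratios of 81 named genes under 13 settings, 1041 stayed within 1 SD, 11 moved and Odc1 reversed (-0.21, thinned). Rsad2 ran from -1.55 to 0.58 without 1 library and reversed without ROS- replicate 2 (0.58). Vat1 over all base-gate cells ran from -0.34 to 0.51 and reversed without ROS+ replicate 1 (-0.13) or ROS- replicate 1 (-0.34). The causes were not tested. ROS- replicate 1, with 28 macrophages, limits the comparisons of gates within the macrophages, and at 2 libraries a gate 2-fold changes were mostly missed on simulated counts.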
